A study of Equus caballus with 10 samples.

Results

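Cell cycle and DNA replication genes were examined in equine tenocytes, the collagen-producing cells of tendon, by following 54 genes chosen by name from the 29196 genes of the expression table. All 54 were found in the table. By their known roles, 26 act in DNA replication and in the step from G1 to S phase, and 28 act in mitosis and cytokinesis. Libraries were made from primary cells of the superficial digital flexor tendon of 5 horses of Thoroughbred or similar type (lines 1 to 5), grown in 3D collagen gels for 14 days. Age and passage are not given for each line. One group received the IRAK-4 inhibitor PF-06650833 (PF) at 100 nM, added daily, and is called PF alone. The other, called IL-1β plus PF, received the same inhibitor plus IL-1β at 17 ng/ml, added every few days, with 5 libraries in each group. Every line gave 1 library to each group, so the groups can be compared within a line. Cells of both groups had been treated with the inhibitor, and untreated cells and cells with IL-1β alone were not used here. The comparison asks how cell cycle genes differ between cells with and without IL-1β when both receive the inhibitor. Whether the inhibitor changed that difference cannot be asked from these libraries.

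In a cell that enters S phase, cyclin E and the phosphatase CDC25A activate CDK2. E2F transcription factors switch on the genes that license replication origins, supply nucleotides and copy DNA. Genes of mitosis peak later, when cyclin B with CDK1 starts mitosis, kinetochores attach chromosomes to the spindle, and the daughter cells are separated. Because cells outside the cycle carry little of most of these transcripts, their level in a bulk culture follows the share of dividing cells, and a smaller share of dividing cells cannot be told apart from less RNA per dividing cell. Tenocytes of adult tendon divide rarely in the tissue but resume division in culture.

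Values are variance-stabilized log2 expression, on which a gene with 0 reads has the value 3.433. The scale compresses differences between low values, so fold changes that involve values near 3.433 are understated. Back-calculated normalized counts are given beside some values. These are read counts adjusted for library depth, and their totals were 34358354 to 38755204 per library. All 54 genes passed the filter of being above 3.433 in at least 5 of the 10 libraries. They were tested with limma over all 17992 genes that passed, with Benjamini-Hochberg adjustment, without a term for the line and also with the line as a block, a fit that compares each line with itself. A call needed an adjusted p below 0.05 together with a log2 fold change of 1 or more in either direction. Over all tested genes the fold changes had a median of -0.01 on the log2 scale.

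The tenocyte transcripts COL1A1, COL1A2, COMP and DCN each had at least 1010 normalized counts in every library. TNMD, which encodes the tendon membrane protein tenomodulin, was listed at the value of 0 reads in all 10. The tenocyte markers SCX, MKX and THBS4 had minima of 97.6, 171 and 3.42 normalized counts. On the log2 scale SCX was at 10.23 to 12.18 with PF alone and at 6.88 to 8.51 with IL-1β plus PF. MKX was at 10.97 to 12.64 and at 7.58 to 10.51, and THBS4 at 4.98 to 8.76 and at 4.24 to 9.17. Of the blood cell and epithelial markers, PTPRC, CD3E, MS4A1 and EPCAM had at most 3.09 normalized counts in any library. Some other members of these lists were higher. Their maxima were 1682 for CD14, 738 for CD68, 1571 for CDH1 and 1010 for KRT19. The summed normalized counts of 9 tenocyte markers ranged from 885850 to 1458800 in the inhibitor-only libraries and from 234760 to 983730 in those with IL-1β. The sums were 61.2 to 1768 and 171 to 1944 for 8 leukocyte markers, mostly CD14 and CD68. They were 6.83 to 45.9 and 3.88 to 29.5 for 5 endothelial markers, 1542 to 34201 and 3885 to 12359 for 4 mural cell markers, and 617 to 2584 and 45.4 to 444 for 5 epithelial markers. The part of these markers in the results was not tested.

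Line 3 stood apart from the other lines in the cell cycle genes before any comparison of conditions. It had the lowest value of the 5 lines in both groups in 49 of the 54 genes, among them all 28 mitosis genes, while 9.60% of all tested genes had this pattern. The normalized counts of the 28 mitosis genes together were 18933, 10304, 1735, 37888 and 43891 in lines 1 to 5 with PF alone. With IL-1β plus PF they were 17368, 27942, 4550, 31971 and 53472. Line 3 was thus the lowest library of each group by a wide margin and line 5 the highest. For the 26 replication genes the sums were 21492, 19389, 16314, 34342 and 34534 with PF alone, and 26221, 37186, 16937, 27982 and 56551 with IL-1β plus PF. All 54 genes had their highest value with IL-1β plus PF in line 5, against 23.9% of all tested genes. The counts of genes that passed and the median log2 fold changes of both gene groups are therefore also given without line 3.

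**Figure D1:**
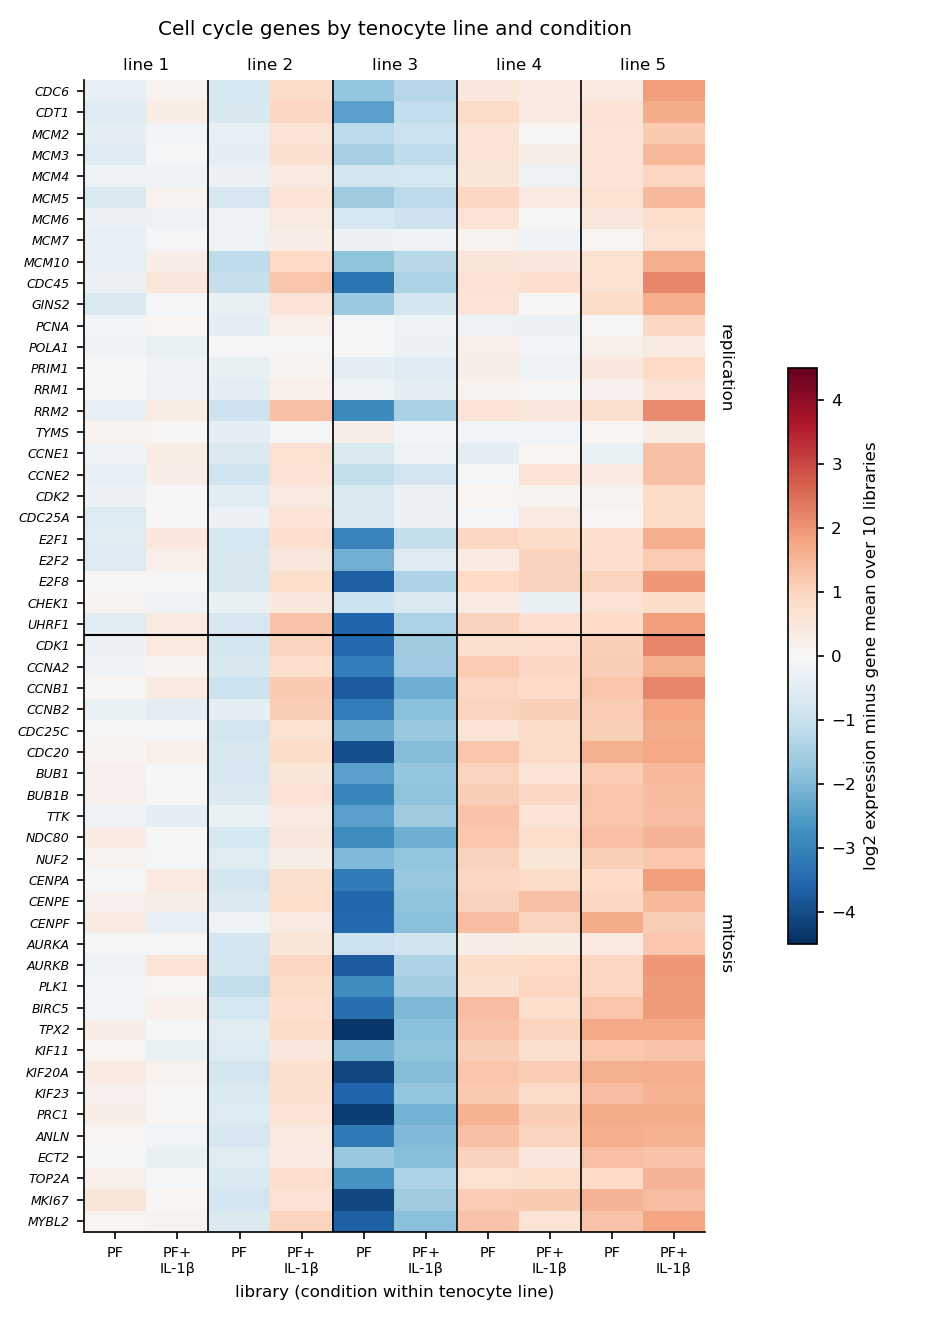
Heat map of the 54 cell cycle genes (rows, replication genes above the black line and mitosis genes below) in the 10 libraries (columns, in pairs by tenocyte line). Colour shows log2 expression minus the gene's mean over the 10 libraries. The columns of line 3 are the bluest in most rows, and the last column, line 5 with IL-1β plus PF, is the highest of the 5 columns with IL-1β in all 54 rows.

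The differences between lines were tested with limma's F test of the line terms in the model that also holds the condition. At an adjusted p below 0.05, 34 of the 54 genes differed between lines, against 2.76% of all tested genes. They were 27 of the 28 mitosis genes, the exception being AURKA, which encodes a kinase of the spindle poles, and 7 of the 26 replication genes, namely MCM3, CDC45, RRM2, E2F1, E2F2, E2F8 and UHRF1. Without line 3, 0 of the 54 genes differed between the other 4 lines, against 0.728% of all tested genes. This count was from 21 to 41 when any other line was left out, against 1.32% to 3.52% of all tested genes. Each line was grown as its own cultures, so donor, passage and culture cannot be told apart as sources of the differences between lines.

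ANLN, NUF2 and CENPE had the smallest p-values of the genes in this test. ANLN encodes anillin, which organizes the contractile ring of cytokinesis. Its log2 expression was 10.45, 9.59, 7.16, 11.66 and 11.99 in lines 1 to 5 with PF alone, and 10.23, 10.78, 8.36, 11.36 and 11.90 with IL-1β plus PF (adjusted p between lines = 0.0149). NUF2, a subunit of the kinetochore complex that binds microtubules, was at 8.51, 7.79, 6.35, 9.38 and 9.42 with PF alone and at 8.28, 8.62, 6.60, 8.89 and 9.56 with IL-1β plus PF (adjusted p between lines = 0.0164). CENPE, a kinetochore motor protein, was at 8.40, 7.57, 4.68, 9.24 and 9.17 and at 8.48, 9.02, 6.42, 9.55 and 9.68, respectively (adjusted p between lines = 0.0164). In all 3 genes the 2 libraries of line 3 were the lowest of the 10, and the values of the groups overlapped.

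Mitosis genes had a larger median spread between lines than replication genes, a difference that was not tested. The spreads and variance shares given here include line 3 and were not computed without it. Line 3 was the lowest line of both groups in all 28 mitosis genes and in 21 of the 26 replication genes. With PF alone the SD over the 5 lines had a median of 1.78 over the mitosis genes and 0.69 over the replication genes, against 0.27 over all tested genes. With IL-1β plus PF these medians were 1.29, 0.75 and 0.30. In 27 of the 28 mitosis genes and in 12 of the 26 replication genes the SD was smaller with IL-1β plus PF than with PF alone, as it was in 42.8% of all tested genes, a share close to that of the replication genes. Of a gene's variance over the 10 libraries, a median of 88.6% lay between lines and 4.22% between conditions for mitosis genes. For replication genes these shares were 75.0% and 14.6%, and for all tested genes 45.8% and 19.1%. CCNE1 alone among the 54 had the larger share between conditions, with 28.1% of its variance between lines and 54.9% between conditions.

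**Figure D2:**
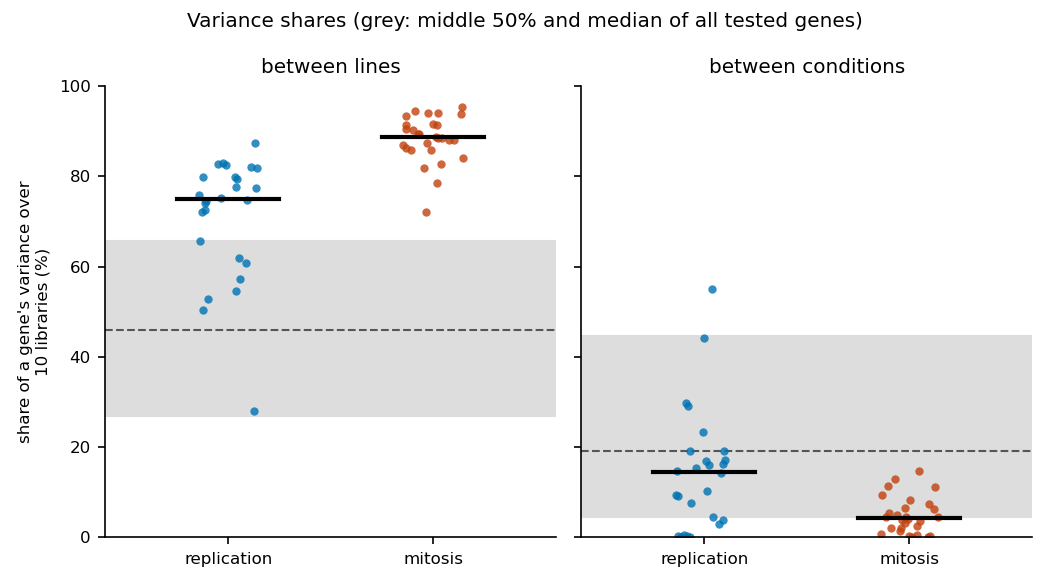
Share of each gene's variance over the 10 libraries, in percent, that lay between the 5 lines (left) and between the 2 conditions (right). Points are genes, black bars are medians, and the grey band and dashed line give the interquartile range and the median of all 17992 tested genes. The mitosis genes lie above the band between lines, and their median between conditions, 4.22%, lies just under its lower edge.

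MKI67, the gene of the proliferation antigen Ki-67, shows how large the differences between lines were. With PF alone its log2 expression was 10.07, 8.65, 5.42, 10.65 and 11.04 in lines 1 to 5, and with IL-1β plus PF it was 9.62, 10.18, 7.92, 10.71 and 10.92. In normalized counts the inhibitor-only libraries ranged from 23.9 in line 3 to 2091 in line 5, an 87.5-fold range, and the libraries with IL-1β from 221 to 1911, an 8.64-fold range. MKI67 was higher with IL-1β in lines 2, 3 and 4 and lower in lines 1 and 5, and the groups overlapped. The difference of the means was 0.70, and an exact two-sided permutation test over the 10 libraries did not separate the groups (p = 0.627, the smallest possible being 0.00794). Without the inhibitor-only library of line 3 the difference was -0.23.

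Between conditions, 0 of the 54 genes were called by limma without a line term, against 6.68% of all tested genes called and 3.11% called higher, and 2 had an unadjusted p below 0.05, against 5348 of the 17992 tested genes. CCNE1 alone passed the adjusted p without the minimum fold change, against 15.5% of all tested genes and 7.57% on the higher side. The direction of the means was nonetheless mostly shared. A higher mean with IL-1β plus PF was found in 52 of the 54 genes, against 8868 of the 17992 tested genes. The exceptions were POLA1 (log2 fold change -0.08) and ECT2 (-0.06). Replication genes had log2 fold changes of -0.08 to 1.30 with a median of 0.55. For mitosis genes they were -0.06 to 1.20 with a median of 0.63. The 54 genes come from the same 10 libraries, so their directions are not independent. Lines 1 and 4 had 10 and 9 of the 28 mitosis genes higher. Without the inhibitor-only library of line 3 the median of the mitosis genes was -0.22. Because the differences between lines are large, the fit that blocks on the line gave other counts. With the block, 6 of the 54 genes were called, all higher with IL-1β plus PF, against 8.26% of all tested genes called and 4.01% called higher. They were CDC45, RRM2, E2F1, UHRF1, CDK1 and AURKB. At an adjusted p below 0.05 alone there were 12, also all higher, against 22.2% of all tested genes and 10.9% on the higher side, namely these 6 and CCNE1, CCNE2, CDC25A, E2F2, CENPA and PLK1. Of the 12, 8 were replication genes and 4 mitosis genes. The number depended on the lines in the fit. It was 4 without line 3 (CCNE1, CCNE2, CDC25A and E2F2), 0 without line 2, 2 without line 5, 3 without line 1 and 21 without line 4. Of all tested genes, 21.5%, 12.6%, 13.9%, 11.9% and 21.6% passed in these fits, in the same order. Only without line 4 was the share of the 54 genes the larger one.

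**Figure D3:**
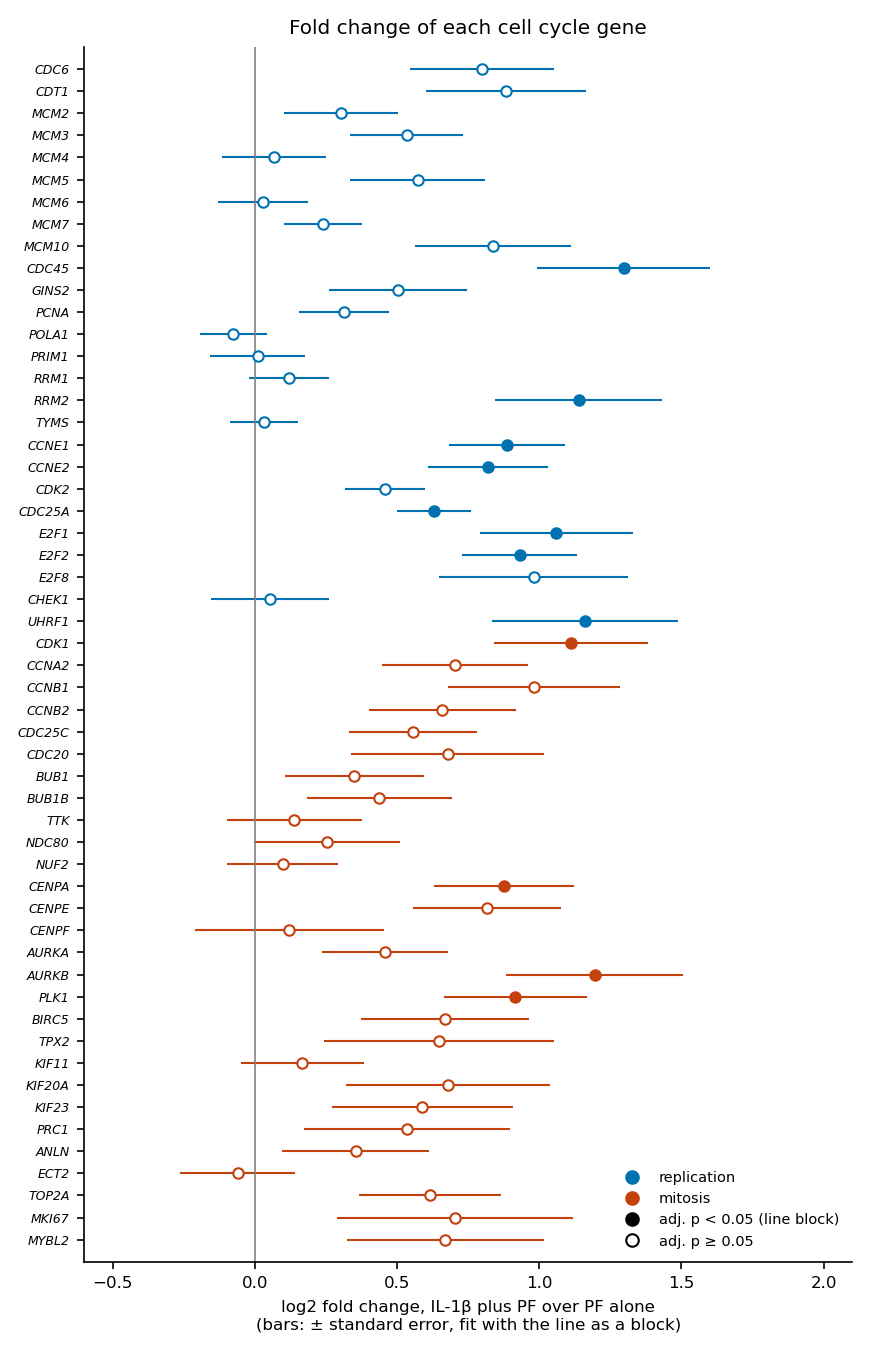
Log2 fold change of IL-1β plus PF over PF alone for each of the 54 genes (points), with the standard error from the fit that blocks on the line (bars). Filled points mark the 12 genes with an adjusted p below 0.05 in that fit, all to the right of 0.

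The E-type cyclins, CDK2 and CDC25A shared their direction in all lines. All 4 of CCNE1, CCNE2, CDK2 and CDC25A were higher with IL-1β plus PF in 5 of 5 lines, a pattern found in 16.0% of all tested genes and in 11 of the 54. Other genes that act at the entry to S phase were mixed. E2F1, CDC6 and CDT1 were lower with IL-1β in line 4, while E2F2 and E2F8 were higher in every line. CCNE1 encodes cyclin E1, the partner of CDK2 at the start of S phase. Its log2 expression was 8.30, 7.86, 7.82, 8.10 and 8.21 in lines 1 to 5 with PF alone and 8.83, 9.19, 8.28, 8.59 and 9.83 with IL-1β plus PF. Line 3 with IL-1β, at 8.28, was the only library of its group inside the range of the other group, just under line 1 with the inhibitor alone, at 8.30. The log2 fold change was 0.89 (standard error 0.26, adjusted p = 0.0412 from limma without a line term, and 0.0196 with the block). Without a line term CCNE1 no longer passed when any 1 library was left out other than those of lines 3 and 4 with IL-1β.

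CDC25A encodes the phosphatase that removes the inhibitory phosphates of CDK2, and had the smallest spread of the line differences among the 54 genes. Expression was 7.39, 7.75, 7.33, 7.93 and 8.09 on the log2 scale with PF alone, and 8.02, 8.60, 7.74, 8.42 and 8.87 with IL-1β plus PF. The 5 lines were higher with IL-1β by 0.63, 0.85, 0.40, 0.49 and 0.78, an SD of 0.19, while the groups overlapped because the lines differ. The log2 fold change was 0.63 (standard error 0.13 and adjusted p = 0.0124 with the block, and 0.24 and 0.104 without a line term). CCNE2, which encodes the second E-type cyclin, was at 6.21, 5.71, 5.52, 6.52 and 6.97 and at 6.89, 7.25, 5.74, 7.22 and 7.92 (log2 fold change 0.82, adjusted p = 0.0289 with the block and 0.202 without a line term). CDK2 had a log2 fold change of 0.46 and did not pass in either fit (adjusted p = 0.0524 with the block). Line 5 was the highest library with IL-1β in all 4 genes, and line 3 the lowest of both groups.

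**Figure D4:**
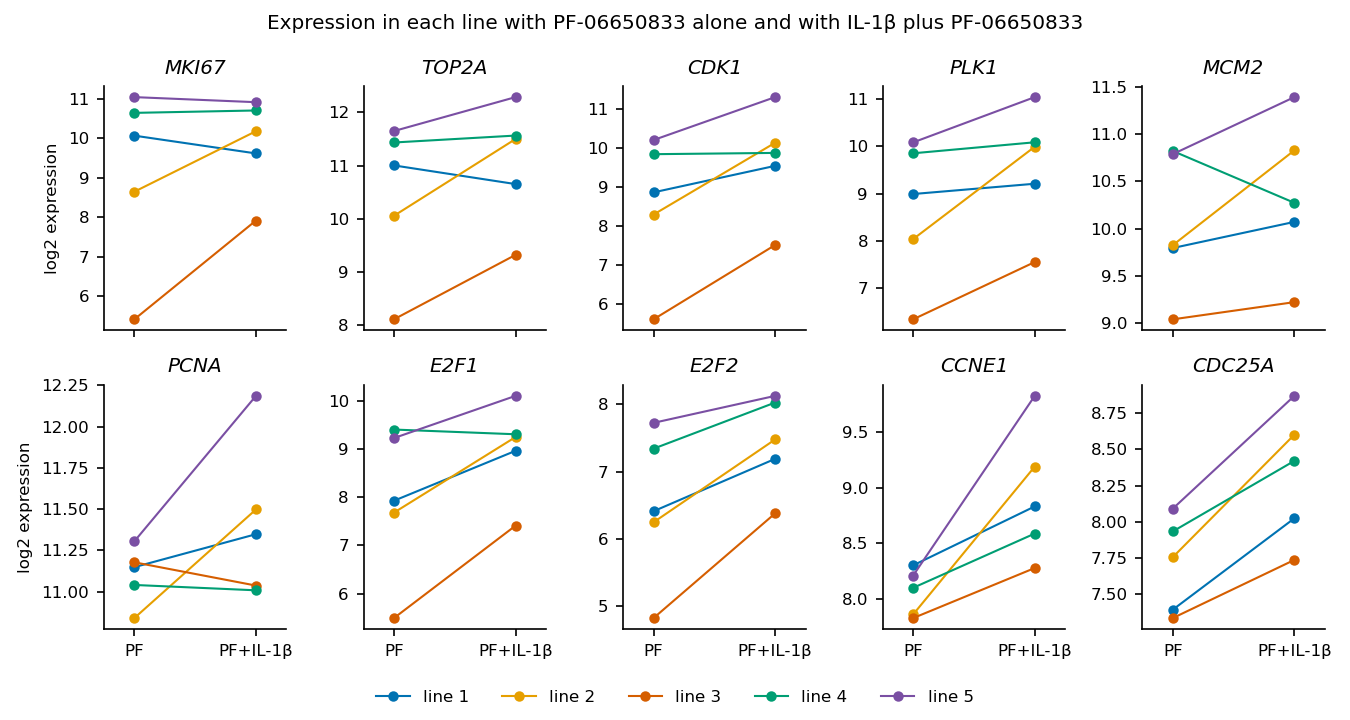
Log2 expression of 10 cell cycle genes with PF alone (left) and with IL-1β plus PF (right). Each coloured line joins the 2 libraries of a tenocyte line, and each panel has its own scale. CCNE1, CDC25A and E2F2 slope upwards in all 5 lines, while MKI67 slopes downwards in lines 1 and 5 and TOP2A in line 1.

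The activators E2F1 and E2F2, which switch on replication genes, passed with the block. E2F2 was at 6.41, 6.25, 4.82, 7.34 and 7.73 in lines 1 to 5 with PF alone and at 7.19, 7.48, 6.38, 8.03 and 8.13 with IL-1β plus PF (log2 fold change 0.93, adjusted p = 0.0155 with the block and 0.265 without a line term). E2F1 was at 7.93, 7.68, 5.49, 9.40 and 9.23 and at 8.96, 9.25, 7.41, 9.31 and 10.10 (log2 fold change 1.06, adjusted p = 0.0271 with the block and 0.357 without a line term). Both genes were higher with IL-1β in lines 1, 2, 3 and 5. Line 4 was higher by 0.69 for E2F2 and lower by 0.10 for E2F1. E2F8, a repressor of the family that acts late in S phase, was listed at 0 reads in line 3 with PF alone and at 33.5 normalized counts in that line with IL-1β. Its other inhibitor-only libraries were at 7.12, 6.39, 8.01 and 8.11 on the log2 scale and its libraries with IL-1β at 7.17, 7.90, 5.72, 8.13 and 9.04 (adjusted p = 0.0725 with the block).

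Among the genes that license and fire replication origins, 1 of 11 passed with the block, against 22.2% of all tested genes. Without a line term 0 passed, against 15.5% of all tested genes. CDC45, which joins the MCM helicase when an origin fires, had the largest log2 fold change of the 54 genes on the variance-stabilized scale. On log2(normalized count + 1) that of AURKB was larger, at 1.72 against 1.64 for CDC45. CDC45 was at 7.42, 6.68, 4.42, 8.34 and 8.40 with PF alone and at 8.20, 8.95, 6.26, 8.44 and 9.89 with IL-1β plus PF, higher in 5 of 5 lines but with overlapping groups. The log2 fold change was 1.30 (standard error 0.30 and adjusted p = 0.0204 with the block, and 0.81 and 0.318 without a line term). In line 3 the normalized count of CDC45 was 5.28 with the inhibitor alone and 56.7 with IL-1β. The licensing factors CDC6 and CDT1, which load the helicase, had log2 fold changes of 0.80 and 0.88 (adjusted p = 0.0594 and 0.0600 with the block), and MCM10 and GINS2 of 0.84 and 0.50 (adjusted p = 0.0648 and 0.177).

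The 6 subunits of the MCM2 to MCM7 helicase differed less between conditions, with log2 fold changes of 0.03 (MCM6) to 0.57 (MCM5) and adjusted p-values of 0.0932 (MCM3) to 0.915 (MCM6) with the block. MCM2 was at 9.80, 9.82, 9.04, 10.82 and 10.79 in lines 1 to 5 with PF alone, and at 10.07, 10.83, 9.22, 10.27 and 11.39 with IL-1β plus PF. Line 4 was thus lower by 0.55 where the other 4 lines were higher by 0.18 to 1.00. All 8 genes of licensing and the helicase were lower with IL-1β in line 4, and all 8 were higher in lines 1, 2 and 5.

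Of the 3 genes of nucleotide supply and the 3 of DNA synthesis, 1 passed with the block, against 22.2% of all tested genes. RRM2, the regulated subunit of ribonucleotide reductase, was at 9.85, 9.28, 7.32, 10.81 and 10.91 with PF alone and at 10.52, 11.54, 8.74, 10.73 and 12.34 with IL-1β plus PF (log2 fold change 1.14, adjusted p = 0.0292 with the block and 0.351 without a line term). It was higher with IL-1β in 4 lines and lower by 0.08 in line 4. RRM1, the other subunit of the enzyme, had a log2 fold change of 0.12 and was higher in 2 of 5 lines. The sliding clamp of the replication fork, encoded by PCNA, was at 11.15, 10.84, 11.18, 11.04 and 11.30 and at 11.35, 11.50, 11.04, 11.01 and 12.19, a difference carried mainly by lines 2 and 5 (log2 fold change 0.31, adjusted p = 0.196 with the block and 0.338 without a line term).

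POLA1 and PRIM1, which belong to the polymerase that makes the first primer, and TYMS, the thymidylate synthase, had small differences between conditions and did not pass the test between lines. POLA1 was at 8.76, 8.87, 8.86, 9.15 and 9.15 with PF alone and at 8.62, 8.98, 8.67, 8.81 and 9.33 with IL-1β plus PF. TYMS was at 10.85, 10.26, 10.97, 10.58 and 10.80 and at 10.76, 10.65, 10.59, 10.59 and 11.03. Line 3 was not the lowest inhibitor-only library for these 2 genes, and for TYMS it was the highest. Their log2 fold changes were -0.08 for POLA1, 0.01 for PRIM1 and 0.03 for TYMS (adjusted p = 0.685, 0.975 and 0.875 with the block).

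UHRF1 reads hemimethylated DNA behind the fork and recruits the maintenance methyltransferase. Its log2 values were 9.37, 9.15, 6.32, 10.94 and 10.81 in lines 1 to 5 with PF alone and 10.30, 11.19, 8.46, 10.66 and 11.77 with IL-1β plus PF. The gene was higher with IL-1β in 4 lines and lower by 0.28 in line 4 (log2 fold change 1.16, adjusted p = 0.0400 with the block and 0.407 without a line term). CHEK1, the kinase of the S phase checkpoint, had a log2 fold change of 0.05 and was higher in 3 of 5 lines (adjusted p = 0.881 with the block).

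In mitosis, 4 of the 28 genes passed the adjusted p with the block, against 22.2% of all tested genes and 10.9% on the higher side. Without a line term 0 of the 28 did so, against 15.5% of all tested genes. CDK1, the kinase that starts mitosis, was at 8.86, 8.29, 5.60, 9.84 and 10.20 with PF alone and at 9.54, 10.13, 7.51, 9.87 and 11.30 with IL-1β plus PF. It was higher with IL-1β in 5 of 5 lines, by 0.03 in line 4 and by 0.68 to 1.91 in the others (log2 fold change 1.11, adjusted p = 0.0237 with the block and 0.438 without a line term). Its partner CCNB1, cyclin B1, was at 9.32, 8.30, 5.53, 10.25 and 10.51 and at 9.65, 10.45, 7.08, 10.18 and 11.46 (log2 fold change 0.98, adjusted p = 0.0539 with the block and 0.561 without a line term). Cyclins CCNA2 and CCNB2, the phosphatase CDC25C and the anaphase activator CDC20 had log2 fold changes of 0.56 to 0.70 and did not pass (adjusted p of 0.0881 to 0.192 with the block).

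AURKB and PLK1, kinases of chromosome attachment and spindle assembly, also passed with the block. AURKB was at 7.44, 6.86, 3.93, 8.52 and 8.65 in lines 1 to 5 with PF alone and at 8.27, 8.61, 6.30, 8.57 and 9.62 with IL-1β plus PF (log2 fold change 1.20, adjusted p = 0.0305 with the block and 0.401 without a line term). On log2(normalized count + 1) AURKB did not pass with the block (adjusted p = 0.0768). Line 3 held 1.28 normalized counts of AURKB with the inhibitor alone and 58.8 with IL-1β. PLK1 was at 8.99, 8.04, 6.34, 9.85 and 10.08 and at 9.21, 9.99, 7.55, 10.09 and 11.04 (log2 fold change 0.92, adjusted p = 0.0362 with the block and 0.470 without a line term). Both were higher with IL-1β in 5 of 5 lines, and the groups overlapped. BIRC5, which encodes survivin, the partner of AURKB in the chromosomal passenger complex, had a log2 fold change of 0.67 and was lower by 0.59 in line 4 (adjusted p = 0.146 with the block).

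Of the 8 kinetochore and spindle checkpoint genes, CENPA alone passed with the block, against 22.2% of all tested genes. It encodes the histone H3 variant that marks centromeres, and was at 8.42, 7.62, 5.31, 9.41 and 9.36 with PF alone and at 8.89, 9.19, 6.76, 9.32 and 10.35 with IL-1β plus PF (log2 fold change 0.88, adjusted p = 0.0389 with the block and 0.526 without a line term). CENPE came next, with a log2 fold change of 0.82 (adjusted p = 0.0593 with the block). The other 6, BUB1, BUB1B, TTK, NDC80, NUF2 and CENPF, had log2 fold changes of 0.10 to 0.44 and adjusted p-values of at least 0.257 with the block. All 8 were higher with IL-1β in lines 2 and 3, 7 of 8 in line 5, 2 of 8 in line 1 and 1 of 8 in line 4.

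Spindle and cytokinesis genes differed in direction between lines. None of the 6 (0) passed in either limma fit, against 22.2% of all tested genes with the block and 15.5% without a line term. At an unadjusted p below 0.05 there were 0 in either fit. None was higher in lines 1 and 4 (0 of 6 in each), whereas 6 of 6 were higher in line 2, 5 of 6 in line 3 and 4 of 6 in line 5. PRC1, which bundles the microtubules of the central spindle, was at 11.03, 10.13, 6.51, 12.34 and 12.44 with PF alone and at 10.82, 11.37, 8.62, 11.86 and 12.44 with IL-1β plus PF. The spindle assembly factor TPX2 was at 9.92, 9.07, 5.25, 10.91 and 11.32 and at 9.61, 10.43, 7.73, 10.62 and 11.33. With MKI67, these genes had the largest SD of the line differences among the 54, at 1.10 for PRC1, 1.23 for TPX2 and 1.26 for MKI67. TOP2A, the topoisomerase that untangles sister chromatids, was at 11.00, 10.05, 8.11, 11.43 and 11.65 and at 10.65, 11.50, 9.32, 11.57 and 12.29, lower with IL-1β in line 1 only (log2 fold change 0.62, adjusted p = 0.119 with the block and 0.615 without a line term).

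Taken by line, the medians of replication and mitosis genes had the same sign in lines 2 to 5 and opposite signs in line 1. Their sizes differed, and the difference between the 2 groups of genes was not tested. The median log2 difference of the replication genes was 0.54, 1.08, 0.41, -0.11 and 0.77 in lines 1 to 5, and that of the mitosis genes was -0.15, 1.45, 1.41, -0.26 and 0.26. Over all tested genes no line had a median further from 0 than 0.0068. In line 2 all 54 genes were higher with IL-1β. In line 1, 21 of 26 replication genes but 10 of 28 mitosis genes were higher, in line 3 20 and 27, in line 4 8 and 9, and in line 5 26 and 24. Lines 2 and 3 had the lowest mitosis values with PF alone and the largest positive differences of the mitosis genes. The difference subtracts the value with PF alone, so a low value there raises it by construction. This relation was not tested. Since each line has 1 library per condition, a difference between lines in the response has no replicate and was not tested. Without line 3 the median was 0.59 for replication genes and 0.33 for mitosis genes, and without its inhibitor-only library alone it was -0.22 for mitosis genes.

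**Figure D5:**
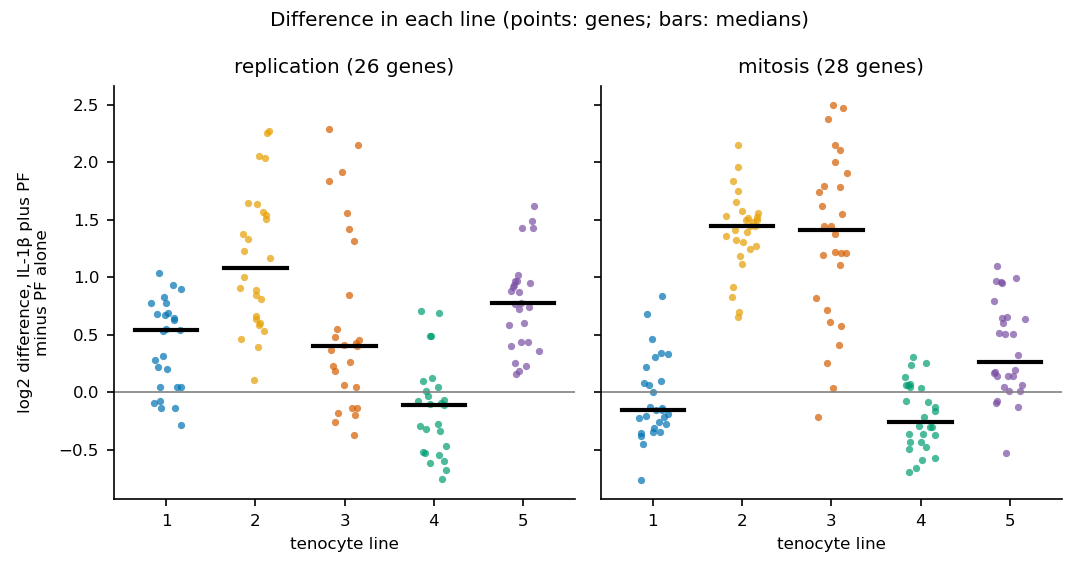
Log2 difference between the 2 libraries of each line, IL-1β plus PF minus PF alone, for the 26 replication genes (left) and the 28 mitosis genes (right). Points are genes and black bars are medians. Mitosis genes lie mostly above 0 in lines 2 and 3 and below 0 in lines 1 and 4, while replication genes lie mostly above 0 in every line but line 4.

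Other genes of the cell cycle were counted in lists of 60 replication genes, 84 mitosis genes and 25 genes of G1 entry and the RB-E2F switch, of which 167 could be tested. Without a line term 2 of them were called, both higher, against 6.68% of all tested genes called and 3.11% called higher. With the block 8 of 167 were called, all higher, against 8.26% of all tested genes called and 4.01% called higher. At an adjusted p below 0.05 alone there were 23 of 167, 20 higher and 3 lower. The shares over all tested genes were 22.2%, and 10.9% on the higher side. With the block, both counts are lower shares than those of all tested genes in either direction, and slightly larger ones on the higher side. UBE2S and RPA3 were called in both fits. UBE2S, the enzyme that extends ubiquitin chains for the anaphase-promoting complex, was at 11.42, 10.99, 11.29, 11.61 and 11.57 in lines 1 to 5 with PF alone and at 13.24, 12.94, 12.15, 12.84 and 13.49 with IL-1β plus PF, with no overlap (log2 fold change 1.56, adjusted p = 0.00122 with the block and 0.00136 without a line term). RPA3, a subunit of the protein that coats single-stranded DNA, was at 9.51, 9.51, 9.53, 9.23 and 9.28 and at 10.77, 10.71, 9.91, 10.10 and 10.90, again with no overlap (log2 fold change 1.06, adjusted p = 0.00469 with the block and 0.00424 without a line term). Line 3 was not the lowest inhibitor-only library for either gene, but it was the lowest library with IL-1β for both.

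CDC25B, which encodes the phosphatase that activates CDK1 at the start of mitosis, had the smallest p of these genes with the block. It was at 9.57, 9.82, 8.58, 10.82 and 10.41 with PF alone and at 10.79, 11.46, 9.89, 11.82 and 11.80 with IL-1β plus PF, higher in 5 of 5 lines with overlapping groups (log2 fold change 1.31, adjusted p = 3.34e-04 with the block and 0.0758 without a line term). DSCC1, of the clamp loader that acts in sister chromatid cohesion, and the mitotic kinase gene PBK had log2 fold changes of 1.02 and 1.11 (adjusted p = 0.00684 and 0.0126 with the block). Among the genes of G1 entry 0 of 25 were called in either limma fit. At an unadjusted p below 0.05 there were 6 without a line term, against 5348 of all 17992 tested genes, and 6 with the block, against 3233 higher and 3273 lower of all tested genes, so neither count was above the background. The D-type cyclins CCND3 and CCND2, named here after their values had been seen, passed the adjusted p with the block in opposite directions. CCND3 was higher in 5 of 5 lines (log2 fold change 0.66, adjusted p = 0.00280) and also passed without a line term (adjusted p = 0.0262). CCND2 was lower in 5 of 5 lines (log2 fold change -0.55, adjusted p = 0.0341) and did not pass without a line term (adjusted p = 0.225). Log2 fold changes had a median of 0.14 in the 58 tested replication genes of these lists, 0.40 in the 84 mitosis genes and 0.01 in the 25 genes of G1 entry. Between lines, 55 of the 84 mitosis genes and 9 of the 58 replication genes of these lists had an adjusted p below 0.05, against 2.76% of all tested genes, and the difference between the lists was not tested.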

How the data were processed

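RNA of 10 cultures was sequenced as 31200000 to 41400000 paired-end reads of 150 bp per library, per the labels. Salmon (version 1.8, corrected for GC bias) and tximport were used by the authors to assign reads to genes of EquCab3.0. The deposited values are log2, variance-stabilized and normalized between libraries, which was read from the values, since the transformation is not named in the sources used here. Raw read depth per library is unknown from them. Normalized counts were back-calculated from the value at 0 reads (3.433).

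For genes above that value in at least 5 libraries, limma 3.58.1 (in R 4.3.3) was run with a trend of variance on mean, first with no line term, since the methods state none, and then with the line (replicate number) as a block. Libraries of one horse share a line, and their deviations from the group means correlated at 0.367 to 0.506 across genes, against a mean of -0.107 between lines. Deviations from a group mean cancel out within the group, so the between-line mean largely follows from the same-line values and adds no separate evidence. The fits and the back-calculation were tested on simulated data. The members and lists were chosen with earlier results of these data known, and so were the tests. All 54 symbols were found in a RefSeq table of another horse assembly, so no positions are given. Genes with full values are fixed markers of each role, those with an adjusted p below 0.05 in either fit, the extremes of the line differences and of the test between lines, and at most 5 called genes per direction of the other lists. Values of single libraries have no technical replicate. Alternatives were other scales, filters, normalizations and variance models, and leaving out libraries or lines. Leaving out a line together with the block was added after the data had been seen. CHAF1A, ASF1B, COL3A1 and KCNJ8 were not analysed here.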

Additional observations from a re-analysis of the deposited data

How the results depend on the processing

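With the replicate block, which pairs the libraries of a line, 6 of the 54 genes were called and 12 had an adjusted p below 0.05, against 0 and 1 without it, and 8 other cell cycle genes were called against 2. With the replicate block on log2(normalized count + 1) these counts were 8, 11 and 10, and 1809 of all genes were called against 1202. At an adjusted p below 0.05 the share of all tested genes was 22.2% with the block and 22.1% with the block on that scale. Without the mean-variance trend 22 of the 54 genes differed between lines, against 34, and 2.19% of all tested genes did, against 2.76%. Leaving out 1 library or line with no block gave 0 to 2 of the 54 genes called, 0 to 3 with an adjusted p below 0.05, 1 to 5 other cell cycle genes called, 762 to 1422 of all genes called and 0 to 41 of the 54 differing between lines. Of all tested genes, 7.05% to 18.2% had an adjusted p below 0.05 in these fits, and 0.728% to 3.52% differed between lines. With the block, leaving out line 1, 3, 4 or 5 gave 2, 0, 12 and 1 genes called, 3, 4, 21 and 2 with an adjusted p below 0.05, and 5, 5, 15 and 4 other cell cycle genes called, and without line 2 0 had an adjusted p below 0.05. In the same order, 1208, 1677, 1578 and 1251 of the 17992 tested genes were called. Their shares with an adjusted p below 0.05 were 11.9%, 21.5%, 21.6% and 13.9%, and 12.6% without line 2. The median log2 fold change of the mitosis genes was -0.22 without the inhibitor-only library of line 3 and 1.16 without its library with IL-1β, and leaving out that first library turned the direction of MKI67 (-0.23, up to 1.19 without other libraries), TPX2 (-0.36, up to 1.20), PRC1 (-0.46, up to 1.13), ANLN (-0.40, up to 0.90) and NUF2 (-0.39, up to 0.55). TYMS ranged from -0.0774 to 0.133 over the libraries or lines left out. With the block, TYMS was at -0.0581 without line 2 and -0.0173 without line 5, and NUF2 at -0.0850 without line 2. The cause of these changes was not tested. Over 24 named genes and 29 alternatives, 652 values kept their direction and their side of the threshold, 28 passed it newly and 16 turned direction.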
